A study of Mus musculus with 2 samples.

Results

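Of the 9165 regions bound by Foxf2-FLAG in mouse palatal shelves, 525 (5.73%) lay in introns of protein-coding genes at more than 100 kb from every protein-coding transcription start site (TSS). A peak was taken into this set when its centre was that far from the nearest TSS, inside the body of a protein-coding gene and outside its exons, by the GENCODE vM1 annotation on mm9. The choice used positions only, and no measured value. Of the 2240 peaks beyond 100 kb, 1705 lay outside all protein-coding gene bodies, here called gene desert, 10 had their centre in an exon, and the 525 deep intronic peaks made up 23.4%. The palatal shelves, paired outgrowths of the maxilla that fuse into the palate, came from embryos at E13.5 (embryonic day). On both Foxf2 alleles of these embryos CRISPR/Cas9 editing had added a 3xFLAG tag to the endogenous protein, and 50 pairs of shelves were used. Chromatin from sonicated nuclei was precipitated with an anti-FLAG antibody to give 1 ChIP library of 26849463 tags (aligned reads). Peaks were called against 1 input library of the same genotype and stage, with a depth of about 19231201 tags as worked out from the fold and tag columns. There was no replicate of either library and no untagged control among the samples used here, so no value below carries a replicate error. All intervals reflect counting alone and treat tags as independent molecules, which PCR copies are not. Because ChIP-seq holds no transcript levels, the tissue label was not checked against marker genes, and whether the host genes are transcribed in the palate is not known from these data.

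Foxf2 is a forkhead-family regulator found in the mesenchyme of the palate, where it acts downstream of hedgehog signals from the epithelium. Forkhead proteins read the core sequence GTAAACA and close relatives of it through a winged-helix domain. Introns of long genes can hold enhancers, and an enhancer in an intron may act on the gene around it or on a neighbour far away, so the host of a peak need not be its target.

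The 200 bp around the centre of the highest-scoring deep intronic peaks are shown because they hold the sequence pattern described further on. The score is the peak caller's own measure of peak strength in this list. The forkhead sites searched were GTAAACA, its close relative ATAAACA, the sequence GTAAATA and also the sequence ATAAATA, on both strands. TGTTTAC is GTAAACA read from the other strand. Sequences are given on the plus strand of mm9 (NCBIM37 reference), 5′ to 3′, with forkhead sites in capitals. The first 8 are the highest-scoring peaks with a site, 1 per host, leaving out Chst9, whose peak scored above them but is not shown, and the last 2 are the 2 highest-scoring peaks without one.
Fmn2, chr1:176547692-176547891: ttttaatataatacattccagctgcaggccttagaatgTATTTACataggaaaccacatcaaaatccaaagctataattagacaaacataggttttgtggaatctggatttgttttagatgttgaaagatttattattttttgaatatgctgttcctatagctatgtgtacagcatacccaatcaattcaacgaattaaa
AI480653, chr16:30974098-30974297: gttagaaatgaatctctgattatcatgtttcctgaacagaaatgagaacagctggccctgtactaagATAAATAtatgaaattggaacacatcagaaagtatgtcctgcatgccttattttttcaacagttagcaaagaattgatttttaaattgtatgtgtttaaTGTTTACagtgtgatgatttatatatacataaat
1700007G11Rik, chr5:99137002-99137201: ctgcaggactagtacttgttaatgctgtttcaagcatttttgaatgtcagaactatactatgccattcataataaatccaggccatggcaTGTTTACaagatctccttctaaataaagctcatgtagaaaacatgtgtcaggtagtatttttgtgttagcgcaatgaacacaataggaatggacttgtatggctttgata
Nrxn3, chr12:91217717-91217916: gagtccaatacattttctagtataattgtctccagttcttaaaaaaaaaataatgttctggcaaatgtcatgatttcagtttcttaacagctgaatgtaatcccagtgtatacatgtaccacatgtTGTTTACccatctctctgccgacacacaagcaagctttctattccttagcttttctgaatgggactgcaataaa
Acss3, chr10:106458344-106458543: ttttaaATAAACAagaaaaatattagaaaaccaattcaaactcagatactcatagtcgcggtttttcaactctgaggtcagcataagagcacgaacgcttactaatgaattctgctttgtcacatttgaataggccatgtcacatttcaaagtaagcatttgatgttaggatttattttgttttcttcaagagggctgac
Npas3, chr12:55152327-55152526: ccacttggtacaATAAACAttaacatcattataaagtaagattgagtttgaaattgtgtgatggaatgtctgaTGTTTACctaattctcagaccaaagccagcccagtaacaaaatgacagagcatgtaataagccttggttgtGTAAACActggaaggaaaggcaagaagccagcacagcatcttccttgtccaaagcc
Tox, chr4:6645445-6645644: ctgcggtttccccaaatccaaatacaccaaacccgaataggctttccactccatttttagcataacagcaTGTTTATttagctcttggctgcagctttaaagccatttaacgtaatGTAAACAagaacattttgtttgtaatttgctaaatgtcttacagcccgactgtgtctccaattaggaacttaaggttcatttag
Trps1, chr15:50530064-50530263: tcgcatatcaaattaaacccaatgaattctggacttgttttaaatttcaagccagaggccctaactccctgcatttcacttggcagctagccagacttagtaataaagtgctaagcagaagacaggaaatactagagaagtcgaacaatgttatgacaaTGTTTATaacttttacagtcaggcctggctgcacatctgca
Wwox, chr8:117139625-117139824: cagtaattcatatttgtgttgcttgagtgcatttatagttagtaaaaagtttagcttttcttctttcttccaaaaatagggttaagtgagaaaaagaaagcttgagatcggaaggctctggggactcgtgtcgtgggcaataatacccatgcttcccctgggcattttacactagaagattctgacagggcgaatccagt
5033411D12Rik, chr13:17178594-17178793: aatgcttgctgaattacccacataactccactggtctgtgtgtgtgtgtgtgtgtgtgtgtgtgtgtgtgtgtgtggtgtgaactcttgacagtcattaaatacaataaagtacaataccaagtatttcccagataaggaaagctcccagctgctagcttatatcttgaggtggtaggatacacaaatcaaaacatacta

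The Npas3 window held 3 sites, ATAAACA at -85 bp from the centre, GTAAACA on the minus strand at -24 bp and GTAAACA on the plus strand at 47 bp. The Tox window held ATAAACA on the minus strand at -27 bp and GTAAACA on the plus strand at 19 bp. In 1700007G11Rik the GTAAACA site lay -7 bp from the centre, and in Nrxn3 it lay 29 bp from it. The Fmn2 window had GTAAATA alone, at -59 bp. AI480653 had ATAAATA at -30 bp and GTAAACA at 69 bp. The Acss3 site was ATAAACA at -91 bp and the Trps1 site ATAAACA at 62 bp. The Wwox and 5033411D12Rik windows had none of the 4 sequences, and the second holds a run of TG repeats.

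The strongest deep intronic peak lay in intron 5 of Wwox, which encodes a WW-domain oxidoreductase and spans a chromosomal fragile site. It covered chr8:117139285-117140163, 176 kb from the nearest Wwox TSS, and had 209 ChIP tags against 8 input tags, an 18.7-fold excess at equal depth (exact 95% interval 9.32 to 43.9) and a score of 166. Its central window had no forkhead site, and neither did those of the other 4 deep intronic peaks of Wwox. The strongest peak with a site in its centre, apart from 1 in Chst9, was that of Fmn2, a formin that nucleates actin filaments, with 126 ChIP against 8 input tags (11.3-fold, 5.55 to 26.7) and a score of 128. The uncharacterised genes 5033411D12Rik and AI480653 followed with 140 against 8 and 128 against 8 tags, both at a score of 121, and 1700007G11Rik with 114 against 8 tags and a score of 116. Chst9, a sulfotransferase gene, held the second-highest score of all, 133, with 131 against 9 tags.

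The other 9 of the 15 highest-scoring deep intronic peaks had scores of 86 to 98. They lay in Nrxn3 (96 ChIP against 4 input tags), a presynaptic adhesion gene, and in Acss3 (98 against 6), which encodes an acyl-CoA synthetase. Genes of 3 transcription factors were among these hosts. Npas3 (91 against 5 tags) encodes a bHLH-PAS factor, Tox (214 against 15) an HMG-box factor and Trps1 (87 against 5) a GATA-type zinc finger repressor. Adcy8 (91 against 6 tags), an adenylyl cyclase gene, Plxna4 (88 against 6), a semaphorin receptor gene, Plxdc2 (86 against 4), which encodes a plexin-domain membrane protein, and Cwc27 (140 against 7), a spliceosome-associated cyclophilin gene, made up the rest. Of the 15, 9 had a forkhead site in the central window and 6 did not, and the nearest TSS was that of the host in 10 and of another gene in 5.

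At the median the deep intronic peaks were like the whole list in strength, while a somewhat larger share of them had high scores. The median deep intronic peak held 31 tags of ChIP (range 14 to 357) and 2 of input, a 12.9-fold excess (10.03 to 64.5) and a score of 25 (17 to 166), against 30 tags, 2 input tags, 12.9-fold and a score of 25 over all peaks. Every peak had to exceed input 10-fold to be called, which sets the lowest fold. A score of at least 42 was reached by 123 of the 525 (23.4%, Wilson 95% interval 20.01 to 27.2), against 19.8% of all peaks. In gene desert the share was 26.0%, and in introns at 10 to 100 kb it was 22.3%. The most tags, 357 against 15 of input (17.1-fold, 10.2 to 30.8), were in a peak of Gpc6, a glypican gene, with a score of 31, and the largest deposited fold, 64.5, was in Prkcb, a protein kinase C gene. That peak had 45 ChIP tags and no input tag, so its fold rests on the value the peak caller puts in place of 0. Width was 500 bp in 370 of the 525 and reached 1608 bp. There were 48 peaks with at least 100 tags (9.14%, against 7.56% of all peaks), 148 with at most 20 (28.2% against 29.0%) and 37 with no input tag (7.05% against 6.40%). The centres had a median GC content of 40.5%, the same as gene desert peaks (40.5%), against 43% in introns at 10 to 100 kb and 46% over all peaks.

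Deep intron sequence carried more Foxf2-FLAG peaks per Mb than gene desert sequence beyond the same limit of 100 kb. Distances above that limit were not matched between the classes, and their part in the ratio was not tested. With assembly gaps left out, 181 Mb of intron beyond 100 kb held 2.90 peaks per Mb (exact Poisson 95% interval 2.66 to 3.16), and 780 Mb of gene desert held 2.19 (2.08 to 2.29). The ratio was 1.33 (1.20 to 1.47, exact binomial test, 2-sided, p = 3.11e-08). The test takes each peak as independent, although 96 of 206 neighbouring pairs of a host lay within 50 kb of each other. Introns at 10 to 100 kb from a TSS held 1582 peaks in 503 Mb, or 3.14 per Mb (2.99 to 3.30). The ratio of deep introns to these nearer introns was 0.923, and its interval of 0.835 to 1.02 included 1 (exact binomial p = 0.114). This ratio turned with the distance limit, to 1.13 (1.04 to 1.23) at 50 kb and 0.798 (0.703 to 0.903) at 150 kb. The share of each class that reads can be mapped to was not measured, and its part in these ratios was not tested. On the X chromosome, 9.77 Mb of deep intron held 8 peaks, 2 of them in Gria3 and 1 each in Gpc3, Odz1, Zcchc16, Il1rapl2, Nhsl2 and Eda. That is 0.819 per Mb against 3.02 on the other chromosomes, a ratio of 0.271 (0.116 to 0.538, exact binomial p = 1.05e-05). The X densities of gene desert and of nearer introns are not given here, so the low value is not shown to be particular to deep introns. Without X, the density ratio was 1.31 (1.18 to 1.45) against gene desert and 0.937 (0.846 to 1.04) against introns at 10 to 100 kb. The sex of the embryos was not given, and its part in the X value was not tested.

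**Figure D1:**
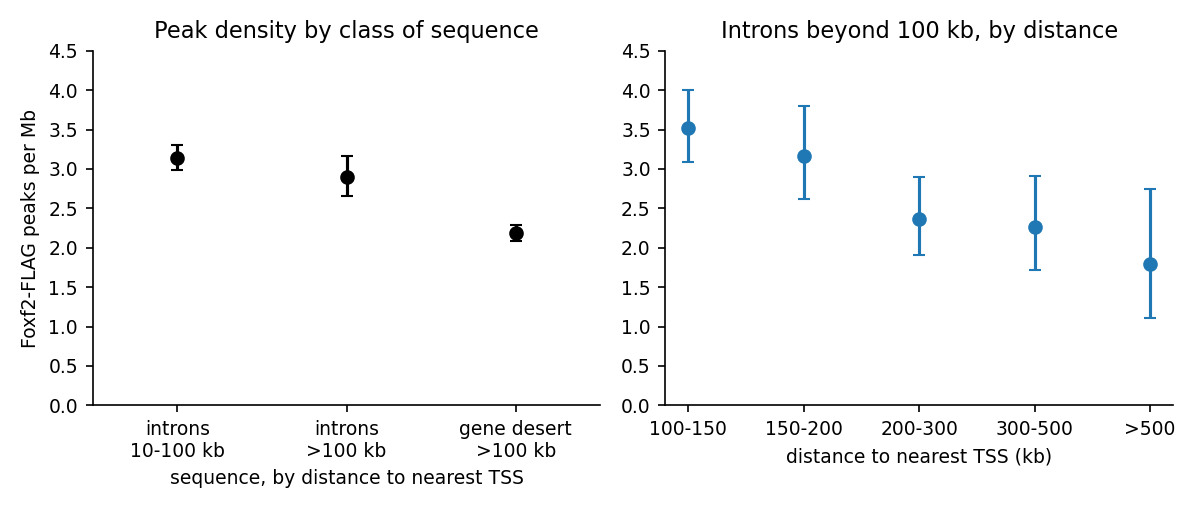
Foxf2-FLAG peaks per Mb (vertical axis) in introns at 10 to 100 kb, introns beyond 100 kb and gene desert (left), and in introns beyond 100 kb by distance to the nearest TSS in kb (right). Points are densities and bars exact Poisson 95% intervals. Gene desert sits lowest at 2.19, and within deep introns the density goes from 3.52 at 100 to 150 kb to 1.79 beyond 500 kb.

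Within deep introns the density was lower at larger distances. There were 233 peaks at 100 to 150 kb (3.52 per Mb, 3.09 to 4.01), 118 at 150 to 200 kb (3.17, 2.62 to 3.79), 94 at 200 to 300 kb (2.37, 1.91 to 2.90), 59 at 300 to 500 kb (2.26, 1.72 to 2.91) and 21 beyond 500 kb (1.79, 1.11 to 2.74). The intervals of the nearest class and of the 3 classes beyond 200 kb did not overlap, and the trend was not tested. The median distance to a TSS was 159 kb. The farthest peaks lay in Pcdh9 (810 kb), a protocadherin gene, in 5033411D12Rik (779 kb) and in Lrrtm4 (774 kb), a synaptic leucine-rich repeat gene. Intronic peaks at 80 to 100 kb had a density of 4.09 per Mb, a median score of 27 and a forkhead site in 54.9%, and those at 100 to 120 kb had 3.39 per Mb, 24 and 57.0%. Just outside lay peaks of Chd7 (99.2 kb, 65 against 4 tags), Col23a1 (99.3 kb, 85 against 6) and one nearest to Cga (99.7 kb, 90 against 5). The first inside lay nearest to the TSSs of Csmd3 (100.04 kb, 27 against 1), Dclk2 (100.3 kb, 60 against 3) and Cntnap5b (100.4 kb, 34 against 1).

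The 525 peaks fell into 319 host genes on 20 chromosomes. Genes with at least 1 kb of deep intron sequence numbered 1068, so 29.9% of the genes that could be hosts were. Hosts were long, with a median gene length of 387 kb against 238 kb for the genes with deep intron but no such peak. Peaks of one gene share a host and are not independent: 207 hosts had 1 peak, 63 had 2, and 49 had 3 or more, which together held 192 peaks. By length, 166 of 757 genes up to 400 kb were hosts (21.9%), 88 of 205 at 400 to 700 kb (42.9%), 28 of 54 at 700 to 1000 kb (51.9%) and 37 of 52 beyond 1000 kb (71.2%). Per Mb of deep intron the order was the opposite, 4.10 peaks (3.59 to 4.65) in hosts and other genes up to 400 kb, 2.58 (2.16 to 3.06), 2.32 (1.79 to 2.97) and 2.05 (1.65 to 2.52). Longer genes thus had more peaks, and fewer for the sequence they offered. Density was also lower at larger distances from a TSS, and gene length and distance were not separated here.

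**Figure D2:**
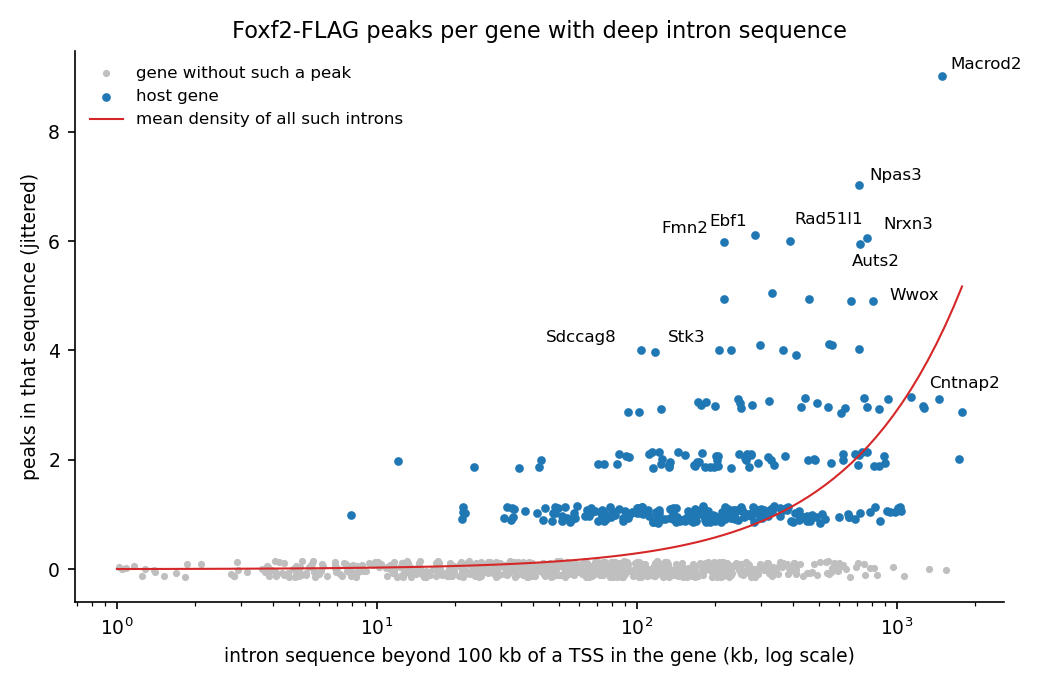
Peaks in the deep introns of each of the 1068 genes (vertical axis, jittered by a small offset) against the gene's length of intron beyond 100 kb in kb (horizontal log axis). Blue points are the 319 hosts, grey points genes without such a peak, and the line is the mean density of 2.90 per Mb. Macrod2 with 9 peaks and Npas3 with 7 stand highest, and Cntnap2 with 3 lies under the line.

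Macrod2, which encodes an enzyme that removes ADP-ribose from proteins, held the most deep intronic peaks. Its 9 peaks lay in introns 4 to 8 of a 1998 kb gene, with 15 to 101 ChIP tags and 1 to 6 input tags, and the highest score was 73. That was 6.03 per Mb of its deep intron (exact Poisson 95% interval 2.76 to 11.5), where the mean density would give 4.33 peaks. Its nested neighbour Flrt3, a gene inside the Macrod2 body, owned the nearest TSS of 4 of the 9. Npas3 followed with 7 peaks in 718 kb of deep intron (9.75 per Mb, 3.92 to 20.1), of which 5 had a forkhead site in the centre. Their ChIP tags were 91, 177, 53, 58, 29, 23 and 57 in order of score, each against 1 to 10 input tags. The last intron but 2 of Npas3 held the strongest, and 3 of the 7 lay close together at 547 to 564 kb from the Npas3 TSS.

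Of the hosts with 6 peaks, Fmn2 and Ebf1 had the least deep intron to hold them. Fmn2 had 6 in 217 kb, 27.7 per Mb (10.2 to 60.3), with 126, 135, 42, 202, 28 and 22 ChIP tags in order of score, and 5 of the 6 had a site. Ebf1, an early B-cell factor gene that is also active in mesenchyme, had 6 in 285 kb, 21.0 per Mb (7.72 to 45.8), with 17 to 139 ChIP tags, and 3 with a site. The lower bounds of both intervals were above the mean of 2.90 per Mb, but these genes were picked out for their counts. Nrxn3 had 6 in 767 kb and Auts2, a gene of a Polycomb complex and of brain development, 6 in 720 kb. The Auts2 peaks were all weak, with 14 to 42 ChIP tags, and 1 of the 6 had a site.

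Wwox, Smyd3 (a lysine methyltransferase gene), Odz4 (teneurin-4), Epha3 (an ephrin receptor) and Sdk1 (an immunoglobulin adhesion gene) had 5 peaks each. Odz4 had 4 of its 5 within 35 kb, in introns 13 and 15, with 42 to 66 ChIP tags and no site in any of the 4. Sdccag8, a gene of the centrosome and cilium, had the highest density of the 15 hosts with most peaks, 4 in 104 kb or 38.5 per Mb (10.5 to 98.6), with 73, 61, 73 and 29 ChIP tags and a site in 3. Stk3, the Hippo pathway kinase Mst2, had 4 in 117 kb (34.1 per Mb, 9.28 to 87.2), with 65, 97, 38 and 18 ChIP tags and no site in any. Cdk14, a cyclin-dependent kinase of Wnt receptor phosphorylation, had 4, with 71, 47, 17 and 16 ChIP tags. Hosts with a site in most peaks, such as Sdccag8, and hosts with none, such as Stk3, were both among the densest.

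**Figure D3:**
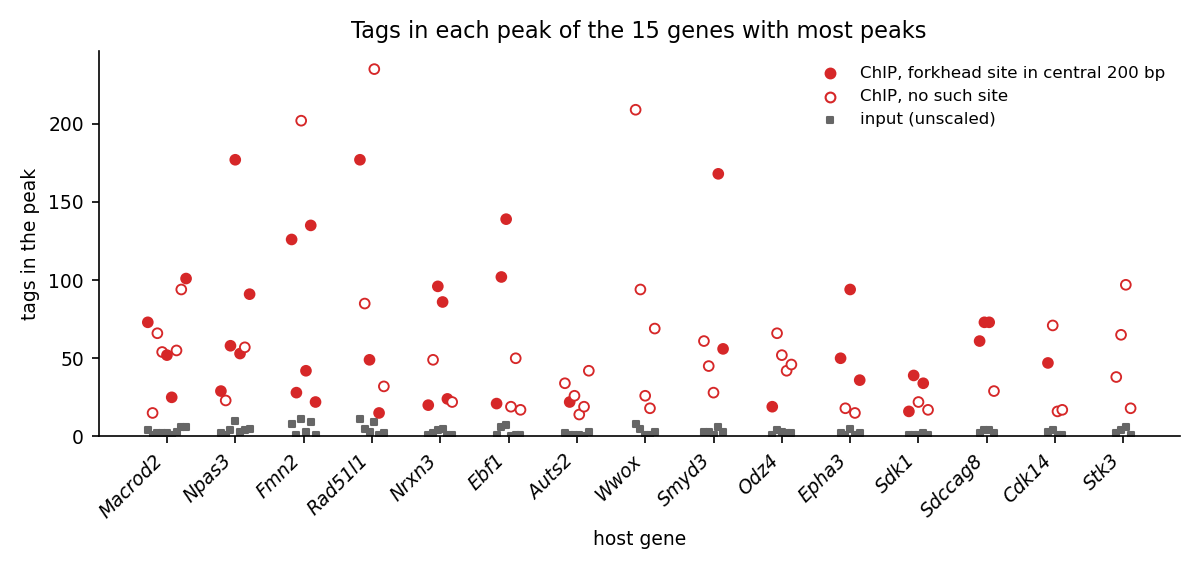
Tags in each deep intronic peak (vertical axis, unscaled) of the 15 hosts with most peaks, ordered by number of peaks. Red circles are ChIP tags, filled where the central 200 bp hold a forkhead site, and grey squares are input tags of the same peaks. The peaks of Auts2 stay at or below 42 tags, and all circles of Wwox and Stk3 are open.

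Many of the longest genes had few or no peaks. Cntnap2, a neurexin-like adhesion gene, had 3 in 1781 kb of deep intron, where the mean density would give 5.17. Lrp1b, a lipoprotein receptor gene, had 2 in 1741 kb. Dmd (1552 kb of deep intron), the dystrophin gene, Csmd1 (1326 kb) and Il1rapl1 (1066 kb) had none. Dmd and Il1rapl1 are genes of the X chromosome, where deep introns held 0.819 peaks per Mb against 3.02 on the other chromosomes. The outlines of 3 hosts reached across many other genes, Gm20388 (4435 kb, with 72 other coding genes inside it), Fgfr2 (3009 kb, 31) and Arfip1 (1391 kb, 5), and they held 4, 1 and 1 of the deep intronic peaks. The Fgfr2 peak (16 ChIP against 1 input tags) lay 665 kb from the nearest Fgfr2 TSS, between Chst15 and Oat. Of the 4 in Gm20388, 3 lay between Foxc2 and 1700018B08Rik and 1 between Banp and Gm22. Those 6 peaks would count as gene desert without these outlines, and the density ratio against gene desert was then 1.32 (1.19 to 1.46). Another coding gene lay inside 34 of the 319 hosts.

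Deep intronic peaks in genes of transcription factors numbered 46. Of 49 genes of transcription factors and cofactors with deep intron, 21 were hosts (42.9%), against 29.9% of all 1068 genes. The 49 held 5.63 peaks per Mb of deep intron (exact Poisson 95% interval 4.13 to 7.52), against 2.90 over all 1068. Their median gene length was 374 kb, against 280 kb. Their peaks had a median score of 28.5, against 25 over all deep introns, and 20 of the 46 (43.5%) had a forkhead site in the centre, against 53.5%. The lists were drawn up with earlier results of these data known, so the counts are descriptions. Npas3 (7 peaks) and Ebf1 and Auts2 (6 each) gave the most. Nfib, a nuclear factor I gene, had 1 peak with 92 ChIP against 4 input tags and 2 sites. Sox5 and Sox6, SOX genes of cartilage formation, had 3 each, the strongest with 71 against 5 tags in Sox5 and 32 against 2 in Sox6. Runx2, the main regulator of bone formation, had 2 weak peaks in its last intron (21 against 1 and 19 against 1), and Hmga2, a chromatin protein of growing embryonic tissue, 2 (111 against 7 and 74 against 5). Sox5, Sox6, Runx2 and Hmga2 were named after their values were seen. Genes of the same list without a deep peak included Gli2, Gli3, Meis1 and Foxp2, with 42.4, 157, 25.9 and 220 kb of deep intron. All of these but Gli3 had a peak within 1 kb of an own TSS.

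Of 73 adhesion and guidance genes 40 were hosts (54.8%), a larger share than the 29.9% over all genes, with 77 peaks and 2.47 per Mb (1.95 to 3.09). Per Mb the list was thus not above all genes, as the interval included their 2.90. The median gene length of the list was 578 kb, against 280 kb over all 1068 genes. The strongest peaks were in Nrxn3 and Plxna4, given above, in Ctnna3 (72 ChIP against 4 input tags), an alpha-catenin gene, and in Cntn4 (69 against 4), a contactin gene. Epha3, Odz4 and Sdk1 had 5 peaks each, and 33 genes of the list had none, Ctnna2 and Opcml among them. Signalling genes showed 39 hosts of 72 (54.2%), with 83 peaks and 3.31 per Mb (2.63 to 4.10). That interval included the 2.90 per Mb over all genes, and the median length of the signalling genes was 476 kb. Wwox, Macrod2, Adcy8 and the other adenylyl cyclase gene Adcy2 (73 against 5 and 35 against 2 tags) had the highest scores of this list.

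Of 33 matrix genes 8 were hosts (24.2%), a share near the 29.9% over all genes, with 11 peaks and 2.04 per Mb (1.02 to 3.65), the strongest in Col24a1, a fibrillar collagen gene (62 ChIP against 4 input tags), and Nell1, a secreted protein of bone formation (52 against 3). Ccbe1, which takes part in lymphatic growth, had 1 peak (92 against 6), and Adamtsl1 had 2 (30 against 2 and 27 against 1). Of 12 muscle genes 3 were hosts (25%, against 29.9% over all genes), Utrn (57 against 2), Ank3 (56 against 4) and Sgcd (18 against 1). The muscle list had 3 peaks and 0.762 per Mb (0.157 to 2.23), against 2.90 over all genes. Channel and neurotransmitter receptor genes had 11 hosts of 52 (21.2%) and 1.25 peaks per Mb (0.727 to 1.998). Their median gene length was 428 kb, against 280 kb over all genes. Hosts among them included Gria3, a glutamate receptor gene (60 against 4 tags in its best peak), Cacna2d3 (163 against 9), a calcium channel subunit gene, and Trpm3 (55 against 3).

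First introns held 48 of the 525 peaks (9.14%), 2.11 per Mb (1.55 to 2.80), and later introns 477, 3.04 per Mb (2.77 to 3.32), and these intervals overlapped at their ends. The median host intron was 88.0 kb long. The nearest TSS was the host's own in 381 peaks and another gene's in 144, and the own TSS was at a median of 183 kb. Neighbouring peaks of a host were at a median of 55.8 kb from each other. Of the 206 neighbouring pairs 38 were within 10 kb, and the closest pair, in Bre, a gene of a BRCA1 complex, was 1.10 kb apart.

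Some hosts lay beside genes of palate and facial development, which were picked out here after their distances were seen. Osr2, a zinc finger gene needed for palate growth, had its TSS 241 to 342 kb from the 4 peaks of Stk3. Kcns2, on the other side, was nearer to each of the 4, at 117 to 218 kb. Tbx2, a T-box gene, was 170 to 191 kb from the 3 peaks of Bcas3 (80, 19 and 19 ChIP tags). Irx3 was 236 to 296 kb from the 3 of Fto, of which one had 205 ChIP against 10 input tags. Rpgrip1l, on the other side of Fto, was 192 to 253 kb from them. The distance from Tcf7l2, a Wnt effector gene, to the 4 peaks of Vti1a was 121 to 250 kb, and from Fzd1, a Wnt receptor gene, to the 4 of Cdk14 it was 133 to 283 kb. Zdhhc6, on the other side of Vti1a, was 175 to 305 kb from the Vti1a peaks. Bmp3 lay 146 kb from the strongest peak of 1700007G11Rik, with 1700010H22Rik at 141 kb on the other side. Trp63 lay 266 and 268 kb from the 2 peaks of Tprg. At Bcas3, Cdk14 and Tprg the gene on the other side was farther from each peak than the gene named. These comparisons leave out the host's own start. The starts of Stk3 and Tprg lay nearer to each of their peaks than Osr2 and Trp63 did. How often hosts in general lie beside genes of palate and facial development was not counted. Which gene any of these peaks acts on was not measured.

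Hosts more often had a peak at their own start than other genes with deep intron did. Within 1 kb of an own TSS, 77 of 319 hosts had another peak (24.1%) and 121 of 749 other genes (16.2%), against 18.5% of all 1068. The difference was 7.98 percentage points (Newcombe 95% interval 2.79 to 13.54). By gene length it was 8.12 points (1.36 to 15.7) up to 400 kb, 12.2 (0.776 to 23.8) at 400 to 700 kb and 7.17 (-7.51 to 19.6) beyond 700 kb. Trps1, Tox, Nfib, Plxna4, Macrod2 and Sdk1 were hosts with a peak at an own start. Of all hosts, 141 (44.2%) had no peak within 100 kb for which they were the nearest gene, and neither did 15 of the 49 hosts with 3 or more deep peaks. Fmn2, Wwox, Smyd3 and Cdk14 were among these 15, so that all their peaks were deep or nearest to another gene. Of the genes without a deep peak 400 of 749 (53.4%) had none.

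Forkhead sites were concentrated in the centres of the deep intronic peaks. The central 200 bp held 1 of the 4 sequences in 281 of the 525 (53.5%, Wilson 95% interval 49.2 to 57.7), against 40.8% of all peaks, and the flank, a 200 bp window placed 2000 bp upstream, held one in 109 (20.8%). The ratio of centre to flank was 2.58 (exact McNemar test, p = 3.42e-28, adjusted p = 6.49e-27 by Benjamini-Hochberg over 19 motif sets). GTAAACA itself was in 106 centres (20.2%), against 15.3% of all peaks, and in 22 flanks (4.19%), a ratio of 4.82 (exact McNemar, adjusted p = 6.37e-15). ATAAACA was in 139 (26.5%) against 37 (7.05%), a ratio of 3.76 (exact McNemar, adjusted p = 1.05e-15). GTAAATA (40 centres, 22 flanks, adjusted p = 0.0833) and ATAAATA (64 and 43, adjusted p = 0.125) did not pass the exact McNemar test. The 4 sequences with their letters in reversed order were in 153 centres and 120 flanks (exact McNemar, adjusted p = 0.0957), but ATAAATA reads the same reversed, so this set holds one of the searched sites and is no control for base composition. Sites were most frequent near the centre, with 32.8% and 31.4% of peaks holding one in the 100 bp on either side of it. The share was 30.1% at -200 to -100 bp and 21.1% at 100 to 200 bp. In the bins beyond 400 bp it was 9.71% to 12.95%. Over the whole region, 436 of the 525 (83.0%) held at least 1, against 82.8% in gene desert, 80.5% in introns at 10 to 100 kb and 64.3% of all peaks.

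**Figure D4:**
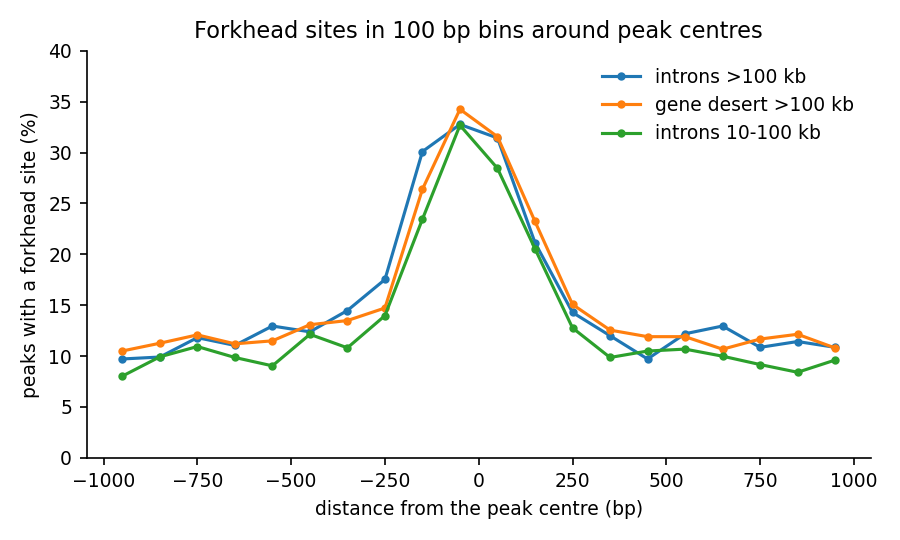
Share of peaks with a forkhead site (vertical axis, %) in 100 bp bins by distance from the peak centre (horizontal axis, bp), for introns beyond 100 kb (blue), gene desert (orange) and introns at 10 to 100 kb (green). All 3 lines rise to between 28.4% and 34.3% in the 2 bins at the centre and lie at 8.03% to 13.1% beyond 400 bp.

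The share of deep intronic peaks with a forkhead site was within counting error of that in the other distal classes. It was 55.8% in gene desert peaks (951 of 1705), a difference of -2.25 percentage points (Newcombe 95% interval -7.13 to 2.59), and 52.7% in introns at 10 to 100 kb (834 of 1582), a difference of 0.806 (-4.12 to 5.70). For GTAAACA the differences were -0.0441 (-3.81 to 4.04) and 1.92 (-1.85 to 5.999). The intervals leave room for differences of several points either way. Across deep introns the share was 55.4%, 52.5%, 46.8%, 57.6% and 57.1% in the 5 distance classes from nearest to farthest, and their intervals overlapped.

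Stronger peaks held a forkhead site more often. With the bins set at the quartiles of all scores, the share was 43.0% (64 of 149, Wilson 95% interval 35.3 to 51.0) at scores of 17 to 19, 50.0% (60 of 120, 41.2 to 58.8) at 20 to 25, 51.5% (53 of 103, 41.9 to 60.9) at 26 to 36 and 68.0% (104 of 153, 60.2 to 74.8) at 37 and over. Over all peaks the shares were 31.0%, 35.0%, 37.6% and 60.7%. The flanks of the deep intronic peaks stayed between 16.99% and 25.2%, with no order by score. Peaks with a site had a median score of 29 and 39 ChIP tags, those without 22 and 29, at the same median fold of 12.9. Their centres had a median GC content of 39% against 42.5%, and the part of base composition in the relation was not tested. One site was found in 191 centres, 2 in 67, 3 in 19 and 4 or more in 4, and the median score was 26, 32 and 44 for 1, 2 and 3 sites. The 4 centres with more had scores of at most 32. The centre with most sites, 7, lay in a weak Bre peak with 18 ChIP tags against 1 of input.

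**Figure D5:**
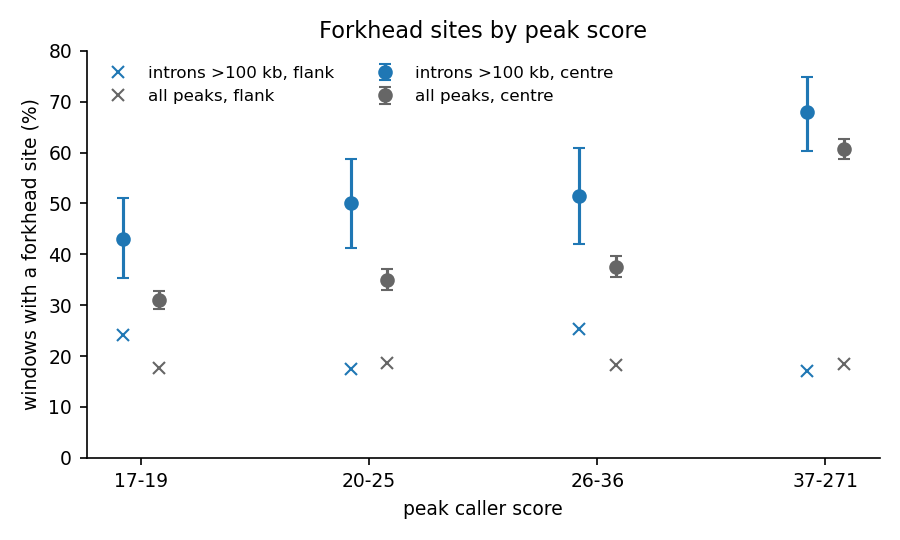
Share of windows with a forkhead site (vertical axis, %) by peak caller score (horizontal axis, quartile bins of all peaks), for introns beyond 100 kb (blue) and all peaks (grey). Circles are central windows with Wilson 95% intervals and crosses flanks. The top bin of the deep introns reaches 68.0%, and the crosses stay under 26%.

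No other sequence searched was more frequent in the centres of deep intronic peaks than in their flanks at an adjusted p under 0.05. The RUNX sequence TGTGGTT was in 30 centres and 25 flanks (exact McNemar, adjusted p = 0.684). A SOX sequence, AACAATG or else AACAAAG, was in 71 and 59 (exact McNemar, adjusted p = 0.621), and 15 of the 71 centres had it only where it overlapped a forkhead site. The E-box CATCTG was in 110 and 91 (exact McNemar, adjusted p = 0.457). TGANTCA of AP-1 was in 26 centres and 34 flanks, GGAATG of TEAD in 63 and 64, TAATTA of homeobox factors in 51 and 43, and AGATAA of GATA factors in 74 and 68. TTGGCA of NFI was in 65 and 52, TGACAG of MEIS in 72 and 62, GGAAGT of ETS factors in 60 and 68, and AGGTCA of nuclear receptors in 44 and 51. The GC-rich sequences GCCNNNGGC of AP-2 and GGGCGG of SP/KLF were in 3.24% and 1.71% of deep intronic centres, against 11.8% and 17.9% of all peaks, which include those at promoters. A sequence that is missing from these windows says nothing on the factor. Where all sites of a peak lay on 1 strand, that was the strand of the host gene in 112 of 238 (47.1%, exact binomial test against equal use, 2-sided, p = 0.399).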

How the data were processed

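Anti-FLAG ChIP-seq and input libraries, 1 of each, were aligned to mm9, per the labels. The submitters' processing notes name Bowtie 1.0.0, SAMtools 0.1.19 and HOMER. The version of HOMER was not given in the sources used here. The peak caller, per the file headers, compared ChIP with input at a fragment length of 112 bp and a minimum width of 500 bp, and kept regions with at least 10-fold more tags than input and than the surrounding 10000 bp, at a p-value of at most 0.0001. The deposited signal of each peak was its ChIP tag number scaled to 10000000 tags. Multiplied back by the library total, the values lay within 0.134 of whole numbers that summed to 397999, and these tags are printed. The deposited signal columns also held scaled ChIP tags and input tags. The deposited ratio is the fold over input, the deposited score is the peak caller's own, and the deposited p-value was not used in a test. No separate file of the input was analysed here.

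Peak centres were compared with GENCODE vM1 coding transcripts on the NCBIM37 reference, the assembly of mm9, and coordinates are printed as deposited. Densities exclude assembly gaps and were compared by exact binomial tests, centre and flank windows by exact McNemar tests with Benjamini-Hochberg adjustment over 19 motif sets, and shares by Newcombe intervals. The calculations ran in Python 3.11.15 with numpy 2.4.6, pandas 2.3.3 and scipy 1.17.1, and were tested on simulated data. With 1 library per group, no test covers the spread between samples. The genes named were the hosts of the 15 highest-scoring peaks, the 15 hosts with most peaks (ties by summed score) and up to 4 genes per list with the highest-scoring peak, and any other gene was picked after its values were known. Some genes that this rule names are not reported here. The 6 gene lists held transcription factors and cofactors, adhesion and guidance, channels and neurotransmitter receptors, signalling, matrix and muscle genes. The peaks and lists were chosen with earlier results of these data known. Alternatives changed the distance limit, the set of TSSs, the exon rule, score and fold minimums, window and flank.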

Additional observations from a re-analysis of the deposited data

How the results depend on the processing

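The higher density of deep introns against gene desert held under every alternative run for it, with ratios of 1.24 to 1.39, and the centre-to-flank ratio of forkhead sites was 2.03 to 4.82. The number of deep intronic peaks was 1067 with a limit of 50 kb, 292 with 150 kb, 285 with the TSSs of all annotated genes, 210 at scores of at least 30 and 169 at 15-fold or more. Against introns nearer to a TSS, the density ratio was 1.13 with the 50 kb limit (against introns at 10 to 50 kb, 1.04 to 1.23, exact binomial p = 0.00456) and 0.798 with 150 kb (0.703 to 0.903, p = 2.66e-04), so its direction turned with the limit. The cause was not tested. The difference in forkhead share against those introns was -0.312 points with 50 kb, -1.003 with 150 kb and -0.471 at 15-fold or more, and against gene desert it was 0.268 with a central window of 100 bp. Each of these intervals included 0, and the causes were not tested. Leaving out the bodies of the 3 gene models that hold 5 or more other coding genes, an alternative chosen after seeing the data, left 519 peaks and turned no direction. The other results kept their direction and their side of the threshold: 51 of the 62 values under alternatives did. No paired analysis was possible because there was 1 library per group and no replicate to leave out. The median peak had 2 input tags, which limits the precision of its fold. Repeats and mappability were not measured.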
